A study of Mus musculus with 18 samples.

Results

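Myoglobin, the creatine kinases and their partners in energy buffering were followed as a set of 10 genes through the RNA of C2C12 myotubes. C2C12, an established mouse myoblast line, forms multinucleated myotubes when serum is lowered. The members were Mb, Mss51, Ckm, Ckb, Ckmt1, Ckmt2, Slc6a8, Ak1, Ampd1 and Pvalb, taken by symbol from a table of 55414 genes. All 10 were found, and 9 of them were among the 21772 genes with at least 10 read pairs in total. Ckmt1 was not, with 5 read pairs over all libraries. The study asked how Erk3 (gene Mapk6) and its partner kinase Mk5 (gene Mapkapk5) act on muscle metabolism.

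Cells received a pool of non-targeting siRNAs (siNtc), a pool against Erk3 (siErk3) or a pool against Mk5 (siMk5) at full confluence, and were differentiated for 6 days. They were then kept for 16 h without serum, in medium with bovine serum albumin alone (BSA) or with 0.5 mM palmitic acid bound to it (PA). Each of the 6 groups had 3 libraries, and every group had gone through transfection and serum withdrawal. The libraries came from 1 cell line, and it is not stated whether those of a group were separate cultures, so p-values measure the spread between these libraries, which may be technical. The list was drawn up with results of these libraries known, so its members were chosen by measured values as well as by role. The differences of Mb and Mss51 between siMk5 and siNtc in BSA, and of Pvalb between siErk3 and siNtc in PA, are therefore given as descriptions with no test. Other comparisons that use the siNtc BSA or siMk5 BSA libraries share them with the contrast that Mb and Mss51 were chosen with. Their p-values for Mb and Mss51 are no independent evidence. The same holds for Pvalb in comparisons that use the siErk3 PA or siNtc PA libraries. Whether the responses to PA entered the choice of the other members, Slc6a8, Ckb and Ckm among them, is not known. Their p-values for PA against BSA, given below, are therefore not taken as independent evidence either.

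Contracting muscle uses ATP faster than respiration can replace it at once. Creatine kinases pass phosphate between creatine and ATP, with a muscle subunit (Ckm) and a brain-type subunit (Ckb) in the cytosol and separate enzymes in mitochondria (Ckmt1, Ckmt2). Creatine itself enters the cell through the transporter Slc6a8. Adenylate kinase (Ak1) remakes ATP from ADP and leaves AMP, which AMP deaminase (Ampd1) converts to IMP. Myoglobin (Mb) stores oxygen, and parvalbumin (Pvalb) binds calcium in the cytosol of fast fibers. Mss51 is a protein of skeletal muscle whose gene responds to myostatin signaling.

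The total of assigned read pairs per library ran from 13041979 to 28496727, with a median of 22417470. All 13 myotube markers passed the filter and summed to 13621 to 18596 CPM (read pairs per 1000000, scaled by TMM), whereas none of 5 adipocyte markers passed, Plin1 and Cidec being at 0 throughout, with a sum of at most 0.107 CPM. Of 5 leukocyte and endothelial markers 3 passed, with a sum of 0.929 to 2.47 CPM and Adgre1 at 0. Of 5 cardiomyocyte markers 4 passed, and they summed to 10.3 to 21.1 CPM. The study reports efficient silencing of both kinases at the protein level, by Western blot. It also reports less Erk3 protein with siMk5, and a trend to less Mk5 protein with siErk3 that was not significant. Mapk6 stood at 132 ± 3.18 CPM (SD, n = 3) in siNtc and 57.4 ± 2.64 in siErk3 in BSA, and at 232 ± 14.7 and 120 ± 11.4 in PA. Mapkapk5 was lower in siMk5 than in siNtc, at 1.63 ± 0.422 against 2.46 ± 0.126 CPM in BSA and 2.31 ± 0.131 against 3.24 ± 0.702 in PA, but neither difference passed the test (adjusted p = 0.469 in both media by edgeR's quasi-likelihood test with Benjamini-Hochberg adjustment). All p-values on single genes come from that test, adjusted over the 21772 genes, and a gene was called when its adjusted p was under 0.05 and its fold change above 1.3.

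The promoters of the members around which the results turn are shown first, as the 200 bases before the start of the canonical transcript (GENCODE M39 on GRCm39). Capitals mark matches, on either strand, to the E-box CANNTG, its form CAGCTG, the A/T-rich MEF2 motif, the M-CAT motif CATTCC, the TATA box TATAAA, the GC box GGGCGG, the ATF4 element TGATGNAA or the ERR element TCAAGGTCA, and a run of lower case holds none of them.
Slc6a8, chrX:72716528-72716727, + strand: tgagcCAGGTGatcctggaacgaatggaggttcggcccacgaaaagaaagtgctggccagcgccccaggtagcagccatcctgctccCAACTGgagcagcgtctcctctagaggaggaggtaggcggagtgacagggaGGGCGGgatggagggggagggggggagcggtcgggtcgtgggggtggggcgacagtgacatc
Ckb, chr12:111638773-111638972, - strand: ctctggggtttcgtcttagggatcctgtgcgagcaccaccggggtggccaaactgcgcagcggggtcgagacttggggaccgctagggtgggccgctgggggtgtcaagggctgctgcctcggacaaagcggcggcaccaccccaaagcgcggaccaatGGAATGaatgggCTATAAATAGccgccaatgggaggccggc
Ckm, chr7:19144633-19144832, + strand: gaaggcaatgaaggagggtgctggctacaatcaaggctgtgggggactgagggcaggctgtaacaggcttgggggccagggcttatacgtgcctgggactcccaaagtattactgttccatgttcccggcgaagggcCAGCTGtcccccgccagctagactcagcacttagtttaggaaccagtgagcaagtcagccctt
Mb, chr15:76906988-76907187, - strand: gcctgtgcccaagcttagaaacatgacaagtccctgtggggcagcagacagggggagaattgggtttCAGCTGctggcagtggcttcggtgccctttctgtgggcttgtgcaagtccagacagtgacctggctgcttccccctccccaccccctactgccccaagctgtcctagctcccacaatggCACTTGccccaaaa
Mss51, chr14:20546970-20547169, - strand: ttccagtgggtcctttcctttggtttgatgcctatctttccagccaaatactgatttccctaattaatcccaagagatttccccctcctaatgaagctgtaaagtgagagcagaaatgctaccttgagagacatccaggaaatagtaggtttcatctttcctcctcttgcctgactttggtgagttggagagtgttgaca
The E-box was in 52.4% of the promoters of 14995 genes of the same length, and in those of Mb, Ckm, Ckmt2, Slc6a8, Ak1 and Ampd1. The form CAGCTG was in 9.63% of all promoters and in those of Mb, Ckm, Ckmt2 and Ak1, at 63 to 58 bases before the start in Ckm. The promoter of Ckb held no E-box. Its match to the MEF2 motif, 29 to 20 bases before the start, contains its TATA box, and lies near an M-CAT match 41 to 36 bases before the start. These motifs were in 1.07%, 6.28% and 9.32% of all promoters, and Ampd1 held all of them as well. The GC box of Slc6a8 was shared with 44.3% of promoters. The ATF4 element was in 1.76% of promoters and in none of the members', and the ERR element in 0.187% and in that of Ckmt1. Matches are descriptions of the sequence. The starts used for Mb and Ckm lie inside the spans that the deposited table gives these genes, which run from 76899687 to 76934870 on chromosome 15 and from 19138701 to 19156766 on chromosome 7. No member shares exonic bases with another gene on its strand.

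Levels differed widely between the members. Per kilobase of exon, Mb was the most abundant, with a mean of 217 CPM per kb over the 18 libraries and rank 134 of 21772 genes. Ak1 (68.8 CPM per kb) and Ckm (65.1) followed at ranks 577 and 607, and Ckb (36.4) and Slc6a8 (32.4) at ranks 1218 and 1396. Mss51 had 8.74, Pvalb 5.03 and Ampd1 0.921 CPM per kb. The mitochondrial creatine kinases were at the bottom, with 0.249 for Ckmt2 and 0.00486 for Ckmt1, which had 0 or 1 read pair in each library. Across libraries the highest level was 1.33 times the lowest for Ak1, 1.44 for Mb, 1.46 for Ckm, 1.71 for Ckb and 2.97 for Slc6a8. The plot of the 9 tested members shows each library.

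**Figure D1:**
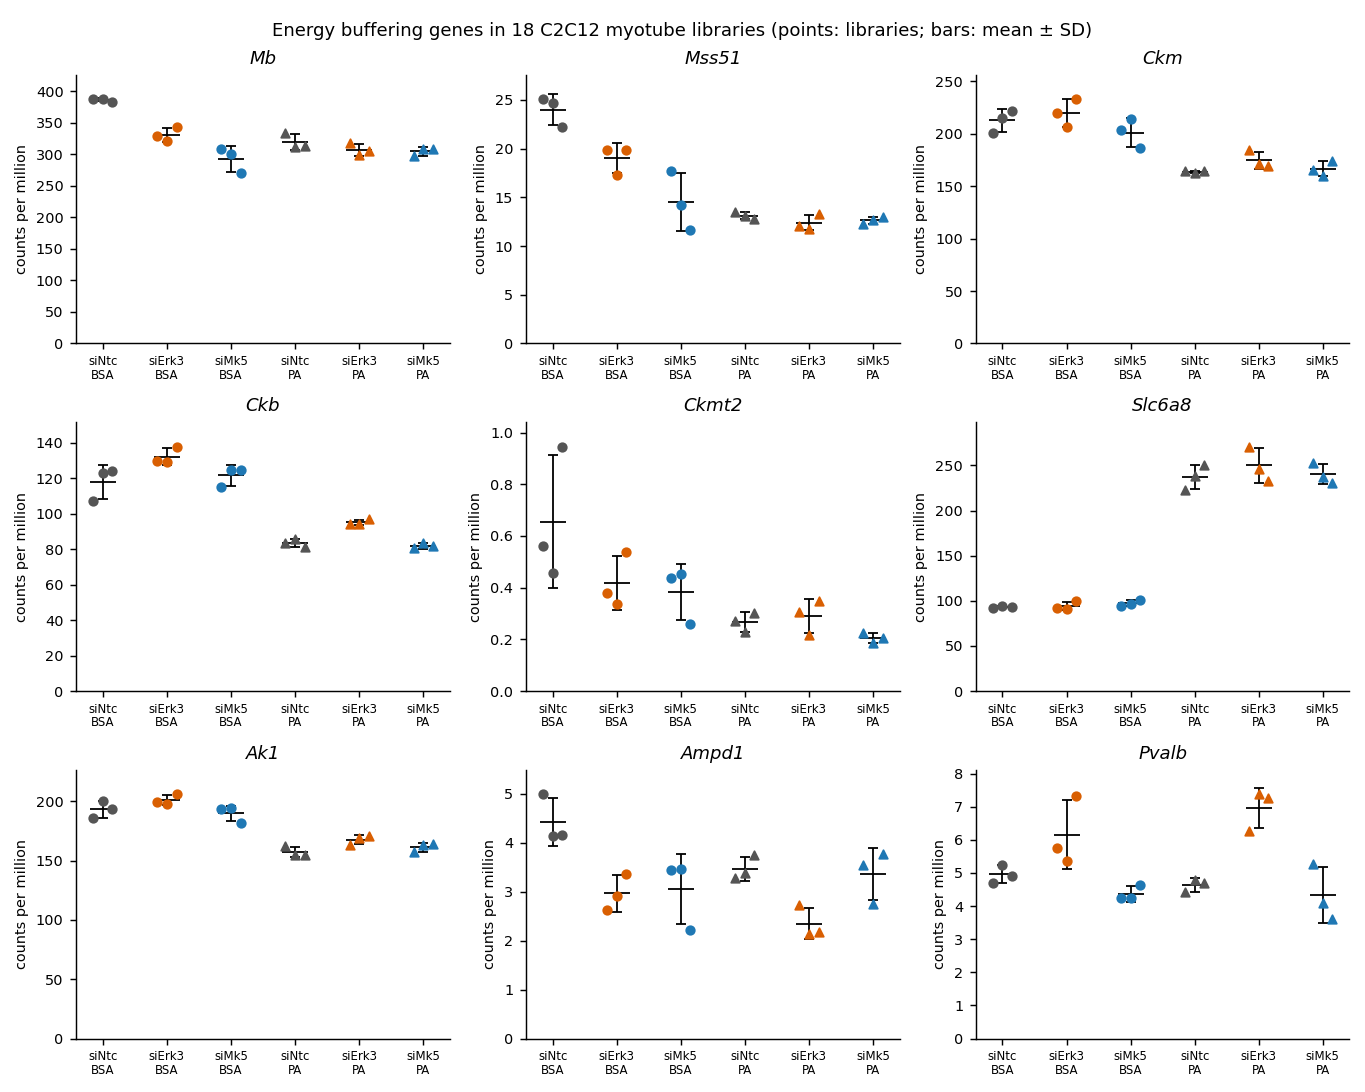
CPM (vertical axes, from 0) of the 9 tested members in each of the 18 libraries, by group; circles are BSA libraries, triangles PA libraries, bars the mean ± SD of 3 libraries. Slc6a8 lies between 91.4 and 101 CPM in all BSA libraries and between 223 and 271 in all PA libraries, while Ckb lies lower in every PA library than in any BSA library.

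Palmitic acid called many genes, and the members' counts stand beside that background, with no more read from them. In siNtc 30.6% of all tested genes were called, 15.5% higher and 15.1% lower, and of the 10 members 1 was called higher and 4 lower (Ckb, Ckm, Mss51 and Ckmt2), the former being Slc6a8. In siErk3 32.1% of genes were called, 15.8% higher and 16.3% lower, and of the members 1 was called higher and 2 lower (Ckb and Mss51). In siMk5 29.7% of genes were called, 15.1% higher and 14.6% lower, and of the members 1 was called higher and 1 lower (Ckb). The plot of palmitic acid against BSA gives the log2 fold changes.

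**Figure D2:**
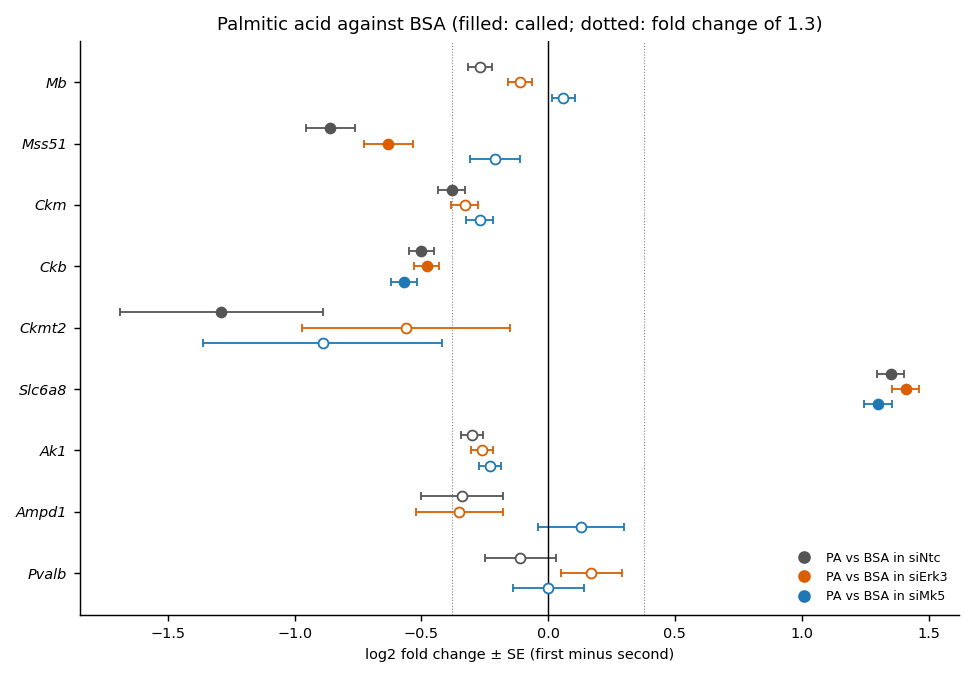
Log2 fold change of PA against BSA (horizontal axis, ± SE) of the 9 tested members under siNtc, siErk3 and siMk5; filled points were called, open points were not, and dotted lines mark a fold change of 1.3. Slc6a8 lies at 1.3 to 1.41, Ckb at -0.57 to -0.48, and Mss51 runs from -0.86 in siNtc to -0.21 in siMk5.

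Slc6a8, the creatine transporter, was called higher in PA under each siRNA, alone among the members. With siNtc the 3 BSA libraries held 92, 93.7 and 93.5 CPM and the 3 PA libraries 223, 238 and 250. With siErk3 they held 92.4, 91.4 and 99.3 in BSA and 271, 246 and 233 in PA. With siMk5 they held 93.9, 96.9 and 101 in BSA and 253, 237 and 231 in PA. No PA library came near a BSA library in any of these pairs of groups. Slc6a8 thus rose by a log2 fold change of 1.35 ± 0.055 (SE) in siNtc, a 2.55-fold difference (adjusted p = 5.75e-19, edgeR). The log2 fold change was 1.41 ± 0.054 in siErk3 (adjusted p = 1.18e-19) and 1.3 ± 0.055 in siMk5 (adjusted p = 1.39e-18). The difference between these responses was 0.06 ± 0.076 for siErk3 and -0.04 ± 0.077 for siMk5 on the log2 scale, and neither passed the test (adjusted p = 0.939 in both). Silencing itself moved Slc6a8 by at most 0.08 on the log2 scale in either medium. Over the 6 groups, the genes whose centred levels lay nearest to those of Slc6a8 were Cln8, Selenok and Foxred2, at mean absolute differences of 0.00733, 0.0213 and 0.0247 on the log2 scale, among 9332 genes with at least 10 CPM.

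Ckb, the brain-type subunit of cytosolic creatine kinase, fell with PA under each siRNA. Its BSA libraries held 107, 123 and 124 CPM in siNtc, 130, 129 and 138 in siErk3, and 115, 125 and 125 in siMk5. Its PA libraries held 83.6, 85.6 and 81.4, then 94.4, 94.2 and 97.0, and then 80.5, 83.4 and 81.6 CPM. All 9 PA libraries lay below all 9 BSA libraries. The log2 fold change was -0.50 ± 0.051 in siNtc (adjusted p = 1.01e-09), -0.48 ± 0.050 in siErk3 (adjusted p = 1.51e-09) and -0.57 ± 0.051 in siMk5 (adjusted p = 6.94e-11, all edgeR). Between siRNAs, Ckb was higher in siErk3 than in siMk5 in PA without overlap of the libraries, by 0.22 ± 0.051 on the log2 scale (adjusted p = 0.0182), which is under the fold criterion. Against siNtc the siErk3 libraries were also higher without overlap, by 0.16 ± 0.050 in BSA (adjusted p = 0.140) and 0.19 ± 0.051 in PA (adjusted p = 0.0852), and neither passed the test.

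Ckm, the muscle subunit, was lower in PA under each siRNA, with log2 fold changes nearer to 0 than those of Ckb. In siNtc the libraries held 201, 215 and 222 CPM in BSA against 164, 162 and 164 in PA. In siErk3 they held 220, 206 and 233 against 184, 171 and 169, and in siMk5 203, 214 and 186 against 165, 160 and 174. The BSA and PA libraries overlapped in none of these pairs of groups. The log2 fold change was -0.38 ± 0.053 in siNtc (adjusted p = 4.66e-07), which lay at the fold criterion, and the call was lost when siNtc BSA library 2 or 3 or siNtc PA library 2 was left out. Over the 6 fits that each left out 1 library it ran from -0.42 to -0.35. The log2 fold changes of -0.33 ± 0.053 in siErk3 (adjusted p = 3.98e-06) and -0.27 ± 0.053 in siMk5 (adjusted p = 7.70e-05) were under it. The siErk3 value was called without siErk3 BSA library 2 (-0.38) and with the 18S ribosomal RNA share of each library as a covariate (-0.39 ± 0.066). None of the silencing comparisons called Ckm, the largest being a log2 fold change of 0.13 ± 0.053 between siErk3 and siMk5 in BSA (adjusted p = 0.450).

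The makeup of creatine kinase RNA was compared per length and without a test. Ckm made up 63.9 ± 0.833% of the summed CPM per kb of the 4 genes in siNtc BSA and 65.9 ± 0.697% in siNtc PA (SD, n = 3). Ckb made up 35.7 ± 0.855% and 33.9 ± 0.716%, and Ckmt2 0.384 ± 0.136% and 0.211 ± 0.0307%. The ratio of Ckm to Ckb was 1.79 ± 0.0664 in BSA and 1.95 ± 0.0614 in PA with siNtc. It was 1.65 ± 0.0576 and 1.83 ± 0.103 with siErk3, and 1.65 ± 0.140 and 2.02 ± 0.109 with siMk5. In each pair of groups all 3 PA libraries lay above all 3 BSA libraries. The transporter moved the other way from the kinases, so that the ratio of Slc6a8 to summed Ckm and Ckb went from 0.158 ± 0.00824 to 0.536 ± 0.0334 in siNtc, from 0.150 ± 0.00229 to 0.517 ± 0.0276 in siErk3 and from 0.169 ± 0.0113 to 0.540 ± 0.0366 in siMk5.

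**Figure D3:**
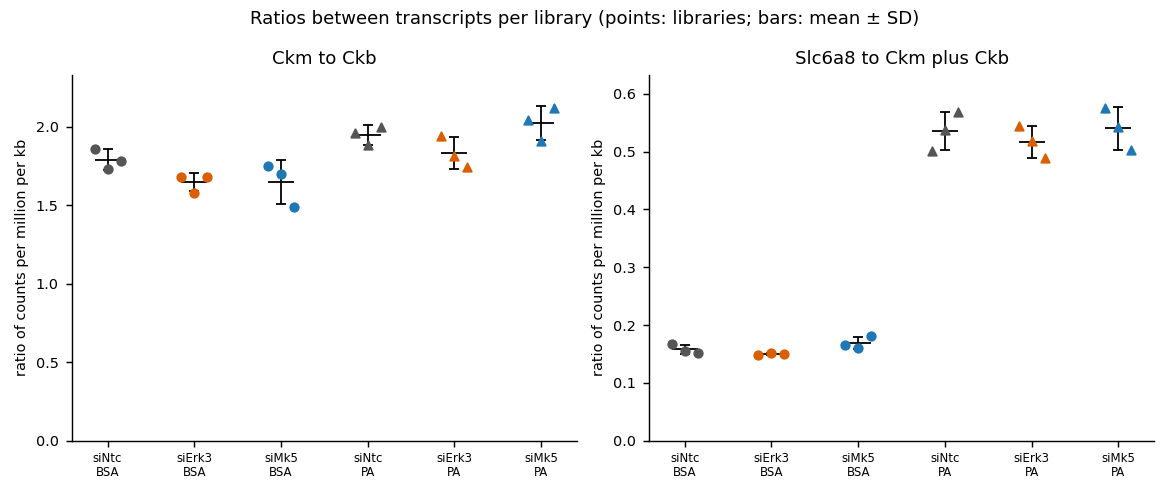
Ratios of CPM per kb in each library (vertical axes, from 0), Ckm to Ckb on the left and Slc6a8 to the sum of Ckm and Ckb on the right; circles are BSA libraries, triangles PA libraries, bars the mean ± SD of 3 libraries. The ratio of Slc6a8 to the cytosolic kinases is 0.150 to 0.169 as group means in BSA and 0.517 to 0.540 in PA.

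The mitochondrial creatine kinase Ckmt2 was counted in 4 to 20 read pairs per library. Its siNtc libraries held 8, 11 and 20 read pairs in BSA and 6, 5 and 6 in PA, or 0.655 ± 0.257 and 0.267 ± 0.0377 CPM. The fall of 1.29 ± 0.40 on the log2 scale was called (adjusted p = 0.00925, edgeR), but without siNtc BSA library 3, the library with 20 read pairs, it was 0.90 and the adjusted p was 0.128. In siErk3 the log2 fold change was -0.56 ± 0.41 (adjusted p = 0.275) and in siMk5 -0.89 ± 0.47 (adjusted p = 0.135). At this depth neither could be told from the spread between libraries.

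Ak1 was lower in every PA group by a small margin. Its libraries held 186, 200 and 193 CPM in siNtc BSA and 162, 155 and 155 in siNtc PA. With siErk3 they held 199, 198 and 206 against 163, 169 and 171, and with siMk5 193, 194 and 182 against 157, 163 and 164. The groups did not overlap. The log2 fold changes of -0.30 ± 0.044, -0.26 ± 0.043 and -0.23 ± 0.044 had adjusted p-values of 1.03e-06, 6.09e-06 and 3.85e-05 by edgeR, yet lay under the fold criterion of 1.3.

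Ampd1, the AMP deaminase of skeletal muscle, was scarce, with 43 to 99 read pairs per library. In siNtc BSA the libraries held 4.99, 4.13 and 4.16 CPM. In the same medium they held 2.62, 2.91 and 3.36 with siErk3 and 3.44, 3.47 and 2.22 with siMk5, both below every siNtc library. In PA they held 3.28, 3.37 and 3.74 with siNtc, 2.72, 2.14 and 2.18 with siErk3 and 3.55, 2.75 and 3.77 with siMk5. The siErk3 libraries were below the siNtc libraries in both media, by -0.55 ± 0.16 on the log2 scale in BSA (adjusted p = 0.105) and -0.56 ± 0.17 in PA (adjusted p = 0.173), and neither passed the test. In BSA the call of Ampd1 depended on the fit: it was made without a filter on low counts and with only the compared libraries. PA against BSA did not call Ampd1 under any siRNA with all libraries, and without siErk3 PA library 1 it was called lower in siErk3 (log2 fold change -0.47, adjusted p = 0.0487).

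Mb had its highest level in siNtc BSA. There its libraries held 388, 388 and 384 CPM, against 330, 321 and 343 with siErk3 and 309, 301 and 270 with siMk5 in the same medium. In PA they held 334, 312 and 313 with siNtc, 318, 299 and 305 with siErk3, and 297, 309 and 309 with siMk5. No library of the other 5 groups reached those of siNtc BSA, and the 3 PA groups lay within 297 to 334 CPM. Mb in siMk5 BSA was 0.758 times its level in siNtc BSA, a log2 difference of -0.40 ± 0.047, which was -0.35 without siMk5 BSA library 3 and so under the fold criterion. In siErk3 BSA it was lower by a log2 fold change of -0.22 ± 0.047 (adjusted p = 0.00657), also under that criterion. This comparison, and PA against BSA in siNtc and siMk5, reuse libraries that Mb was chosen with, so their p-values are no independent evidence. In PA the differences from siNtc were -0.06 ± 0.047 with siErk3 (adjusted p = 0.833) and -0.07 ± 0.047 with siMk5 (adjusted p = 0.886). PA against BSA gave -0.27 ± 0.047 in siNtc (adjusted p = 9.96e-06), -0.11 ± 0.047 in siErk3 (adjusted p = 0.0573) and 0.06 ± 0.047 in siMk5 (adjusted p = 0.372), none past the fold criterion.

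Mss51 was also highest in siNtc BSA, and its range was wider than that of Mb. In BSA its libraries held 25.1, 24.7 and 22.2 CPM with siNtc, 19.9, 17.3 and 19.9 with siErk3, and 17.7, 14.2 and 11.7 with siMk5. In PA they held 13.5, 13.1 and 12.8, then 12.1, 11.8 and 13.3, and then 12.3, 12.7 and 13 CPM. All 9 PA libraries lay between 11.8 and 13.5 CPM, whichever siRNA had been used, and siMk5 BSA library 3 lay below them. Mss51 in siMk5 BSA was 0.613 times its level in siNtc BSA, a log2 difference of -0.71 ± 0.095 that ran from -0.89 to -0.58 as single libraries were left out. In siErk3 BSA the log2 fold change was -0.33 ± 0.091 (adjusted p = 0.0720), and in PA it was -0.09 ± 0.10 with siErk3 (adjusted p = 0.897) and -0.06 ± 0.10 with siMk5 (adjusted p = 0.983). Mss51 fell with PA in siNtc, by a log2 fold change of -0.86 ± 0.097 (adjusted p = 6.54e-09), and in siErk3, by -0.63 ± 0.096 (adjusted p = 1.86e-06). In siMk5 the log2 fold change was -0.21 ± 0.10 (adjusted p = 0.0963, all edgeR). The comparisons with siNtc BSA or siMk5 BSA reuse libraries that Mss51 was chosen with, so their p-values are no independent evidence.

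The 18S ribosomal RNA gene took 8.39% to 12.874% of the read pairs of the siMk5 BSA libraries, more than the 2.56% to 7.167% of the siNtc BSA libraries. With that share as a covariate, a fit chosen after the data were seen, the difference of siMk5 from siNtc in BSA was -0.39 ± 0.056 for Mb and -0.73 ± 0.12 for Mss51 on the log2 scale. The summed myotube markers were 14785 to 16960 CPM in siMk5 BSA and 16481 to 17101 in siNtc BSA, and their part in the differences was not tested. Of the 13 myotube markers edgeR called 0 in siMk5 against siNtc in either medium, with 3 at an unadjusted p under 0.05 in BSA and 6 in PA. In RNA from whole cultures, fewer cells of a type and less RNA per cell cannot be told apart.

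Pvalb was highest in the siErk3 groups, at a low level of 67 to 205 read pairs per library. In PA its libraries held 6.26, 7.38 and 7.25 CPM with siErk3, 4.41, 4.79 and 4.70 with siNtc and 5.26, 4.10 and 3.61 with siMk5. In BSA they held 5.75, 5.36 and 7.33 with siErk3, 4.71, 5.25 and 4.92 with siNtc and 4.23, 4.23 and 4.64 with siMk5. The siErk3 libraries lay above those of the other siRNAs in both media. In PA the difference from siNtc was 0.59 ± 0.13 on the log2 scale, a ratio of 1.51 (0.54 to 0.66 on the log2 scale as single libraries were left out), and the difference from siMk5 was 0.68 ± 0.13, a ratio of 1.60, which shares the siErk3 PA libraries with the former. In BSA the differences were 0.31 ± 0.13 from siNtc (adjusted p = 0.370) and 0.50 ± 0.13 from siMk5 (adjusted p = 0.0698). PA against BSA moved Pvalb by -0.11 to 0.17 on the log2 scale and called it under no siRNA. Beside it, 2 of the 13 myotube markers, the embryonic and neonatal myosin heavy chains, were called higher with siErk3 in BSA. Of all tested genes 0.785% were called there. The other 11 markers were not called, and the median log2 fold change of the 13 was 0.03. Of the 13 markers 7 had an unadjusted p under 0.05 by edgeR, beside 2316 of the 21772 genes. Myh8 stood at 505 ± 47.3 against 342 ± 11.9 CPM and Myh3 at 3194 ± 267 against 2431 ± 83.1, log2 fold changes of 0.57 ± 0.055 and 0.39 ± 0.051 (adjusted p = 1.25e-07 and 1.44e-05, edgeR). In PA only Myh8 was called, at 366 ± 21.1 against 241 ± 5.09 CPM, a log2 fold change of 0.60 ± 0.055 (adjusted p = 2.27e-08, edgeR). The other 12 markers were not called there, where 0.556% of all tested genes were. Of the 13 markers 7 had an unadjusted p under 0.05 in PA by edgeR, beside 1802 of the 21772 genes. Their median log2 fold change in PA was 0.11. The part of these markers in the level of Pvalb was not tested.

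Silencing called few members, as it called few genes. These comparisons share their siNtc libraries within a medium. In siErk3 against siNtc 0.785% of genes were called in BSA and none of the members, and DESeq2 also called 0. Of the members 5 had an unadjusted p under 0.05, beside 2316 of the 21772 genes. In PA 0.556% of genes were called and 1 member, Pvalb, whose choice rests on that contrast. Its call was lost without siNtc PA library 1, siNtc PA library 2 or siErk3 PA library 2. In siMk5 against siNtc 0.0643% of genes were called in BSA, 14 in all, and 2 of those were Mb and Mss51, whose choice rests on that contrast. In PA 0.547% of genes were called and 0 members by edgeR, none with an unadjusted p under 0.05, and 0 by DESeq2. Between siErk3 and siMk5 0.588% of genes were called in BSA and 0 members, also 0 by DESeq2. Of the members 5 had an unadjusted p under 0.05 there, beside 1848 of the 21772 genes. In PA 1.03% of genes were called and 1 member, Pvalb, from the siErk3 PA libraries that it was chosen with.

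The interaction of siErk3 with PA, the difference between the responses to PA with siErk3 and with siNtc, called 0.0367% of genes and 0 members, of which 1 had an unadjusted p under 0.05, and DESeq2 called 0. That of siMk5 with PA called 0.211% of genes and 1 member, Mss51, at 0.65 ± 0.14 on the log2 scale, and was past the threshold in 3 of 12 fits that each left out 1 library. Mb had 0.33 ± 0.066 in the same interaction, under the fold criterion. Both contain the siMk5 difference in BSA that these genes were chosen with.

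**Figure D4:**
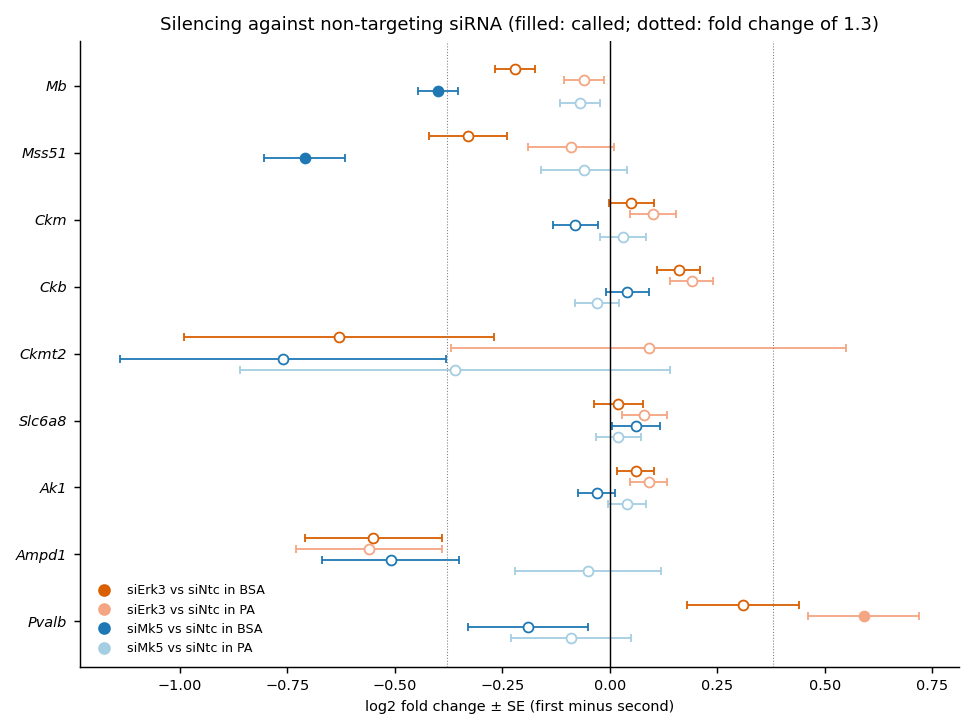
Log2 fold change (horizontal axis, ± SE) of siErk3 and siMk5 against siNtc in BSA and in PA for the 9 tested members; filled points were called, open points were not, and dotted lines mark a fold change of 1.3. Mb and Mss51 lie at -0.40 and -0.71 in siMk5 BSA, and Pvalb at 0.59 in siErk3 PA.

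Around the members, 85 other genes of the same pathways had been listed, of which 81 were tested. PA called 12 of them higher and 22 lower in siNtc, 12 and 27 in siErk3, and 12 and 22 in siMk5, beside the 15.5% and 15.1%, 15.8% and 16.3%, and 15.1% and 14.6% of all tested genes. For the genes called higher these counts are near that background. Their median log2 fold change was -0.21, -0.27 and -0.20, against -0.03, -0.01 and -0.01 over all tested genes. In each silencing comparison and interaction edgeR called 0 of them, with 4 to 16 at an unadjusted p under 0.05. Over all 21772 genes 1329 to 2316 had such a p in these comparisons.

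The RNA of the creatine synthesis genes Gatm and Gamt moved against that of the transporter Slc6a8. Gatm, which makes guanidinoacetate, fell from 73.4 ± 2.45 to 52.4 ± 2.86 CPM in siNtc, a log2 fold change of -0.49 ± 0.050 (adjusted p = 1.19e-09). Gamt, which methylates it to creatine, fell from 29.5 ± 1.70 to 14.7 ± 0.593 CPM, by a log2 fold change of -1.01 ± 0.084 (adjusted p = 1.11e-11, both edgeR). Both were called lower under the other siRNAs too, with log2 fold changes of -0.42 and -0.97 in siErk3 and -0.51 and -1.04 in siMk5. The other 2 genes listed with them were not called under any siRNA. Of these Slc16a12 was nearly absent, with group means of at most 0.0948 CPM.

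The AMP deaminases other than Ampd1 rose with PA. Ampd3, the erythrocyte form, went from 15.4 ± 0.871 to 124 ± 9.47 CPM in siNtc, a log2 fold change of 3.00 ± 0.080 (adjusted p = 1.18e-23). Ampd2, the liver form, went from 44.3 ± 1.52 to 102 ± 7.28 CPM, a log2 fold change of 1.20 ± 0.069 (adjusted p = 2.43e-15). Under siErk3 and siMk5 Ampd3 rose by 3.14 and 2.90 and Ampd2 by 1.1 and 1.09 on the log2 scale. Of the 9 tested genes of AMP deamination and the purine nucleotide cycle, 2 were called higher and 2 lower in siNtc. Of all tested genes 15.5% were called higher and 15.1% lower. The 2 called lower were Adss1, the adenylosuccinate synthetase of muscle, at -0.50 ± 0.058, and Nt5e, at -0.79 ± 0.19. Nt5e is the ectonucleotidase that makes adenosine from AMP. With siErk3 and siMk5 3 were called lower, beside 16.3% and 14.6% of all tested genes, Ada, adenosine deaminase, among them in both. Its log2 fold changes were -0.81 ± 0.21 and -0.95 ± 0.24. Ada was scarce, at 2.69 ± 0.483 CPM in BSA and 1.57 ± 0.593 in PA with siErk3, where the libraries overlapped. With siMk5 it stood at 2.37 ± 0.217 and 1.22 ± 0.185 CPM.

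Of the 8 adenylate kinases other than Ak1, 3 were called higher and 0 lower in siNtc, beside 15.5% and 15.1% of all tested genes. Ak4, a form of the mitochondrial matrix, rose from 4.10 ± 0.876 to 15.9 ± 2.74 CPM, a log2 fold change of 1.91 ± 0.14 (adjusted p = 5.49e-13). Ak6 rose by 0.59 ± 0.085 on the log2 scale. Ak4 and Ak6 were called higher with siErk3 and siMk5 as well, and Ak5 was called lower in siErk3, at -0.56 ± 0.15.

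Of the 7 subunits of the AMP-activated protein kinase, 1 was called higher and 3 lower in siNtc, beside 15.5% and 15.1% of all genes. Prkag3, a gamma subunit typical of skeletal muscle, fell from 106 ± 3.34 to 48.7 ± 4.26 CPM, a log2 fold change of -1.12 ± 0.078 (adjusted p = 2.14e-13). Prkag2 fell by 0.90 and the catalytic subunit Prkaa2 by 0.38 on the log2 scale, while Prkab1 rose by 0.53. Prkag3 was also called lower in siErk3 (-1.01 ± 0.077) and siMk5 (-0.85 ± 0.078).

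Among 9 carriers and channels of mitochondrial adenine nucleotide and phosphate exchange, 3 were called higher and 1 lower in siNtc. Of all tested genes 15.5% were called higher and 15.1% lower. Slc25a25, a calcium-dependent ATP-Mg carrier, rose from 14.5 ± 0.812 to 34.7 ± 4.20 CPM, by 1.25 ± 0.11 on the log2 scale. Vdac3 and Slc25a5 rose by 0.40 and 0.41, and Slc25a23, another ATP-Mg carrier, fell by 0.56. Among the 12 other globins and genes of heme handling, Hmox1, the oxygenase that degrades heme, rose from 26.7 ± 2.66 to 588 ± 103 CPM, a log2 fold change of 4.45 ± 0.13 (adjusted p = 5.83e-23). Cpox, of heme synthesis, rose from 23.8 ± 1.52 CPM by 2.15 ± 0.056 on the log2 scale, and Ppox, of the step after it, fell from 18.8 ± 1.03 to 13 ± 1.40 CPM. Other globins were nearly absent, with group means of at most 0.269 CPM for Cygb and 0.225 for Ngb.

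Of the other listed genes for calcium-binding proteins of the cytosol 6 were tested, while Ocm, Calb1 and Calb2 were at 0 in all libraries. Of the 6 PA called 0 higher and 3 lower in siNtc, beside 15.5% and 15.1% of all tested genes. These were Calm3, Sri and S100a1, at -0.42, -0.49 and -0.46 on the log2 scale. Of 10 genes of the myostatin axis, Fst, which binds and blocks myostatin, fell from 144 ± 4.46 to 57.9 ± 3.38 CPM, and the signal transducer Smad3 fell from 130 ± 7.76 to 64.9 ± 1.27, log2 fold changes of -1.31 ± 0.052 and -1.0 ± 0.055. The receptor Tgfbr1 rose from 34.8 ± 0.613 to 50.7 ± 1.35 CPM. The same 3 genes were called in the same directions in siErk3 and siMk5.

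Of 16 listed regulators of the creatine kinase and myoglobin genes, PA called 8, 10 and 9 lower in siNtc, siErk3 and siMk5, and 0 higher. Of all tested genes 15.1%, 16.3% and 14.6% were called lower. The myogenic factors Myod1 and Myog fell from 89.4 ± 8.08 to 47.7 ± 4.69 CPM and from 491 ± 6.76 to 325 ± 13.5 CPM in siNtc. Six4 fell by 0.70 on the log2 scale. Of the 13 myotube markers 8, 4 and 3 were called lower under siNtc, siErk3 and siMk5, beside those same shares of all genes. Their sum was 16481 to 17101 CPM in BSA against 13870 to 14457 in PA with siNtc, and 16498 to 18596 against 14542 to 15900 with siErk3. With siMk5 the sums overlapped, at 14785 to 16960 against 13621 to 15386 CPM. Markers of undifferentiated myoblasts were lower as well, from 1102 to 1150 down to 662 to 737 CPM as a sum, with 5 of 9 called lower and 1 higher in siNtc. Whether these shifts bear on Ckm, Ckb, Ak1, Mb and Mss51 was not tested.

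**Figure D5:**
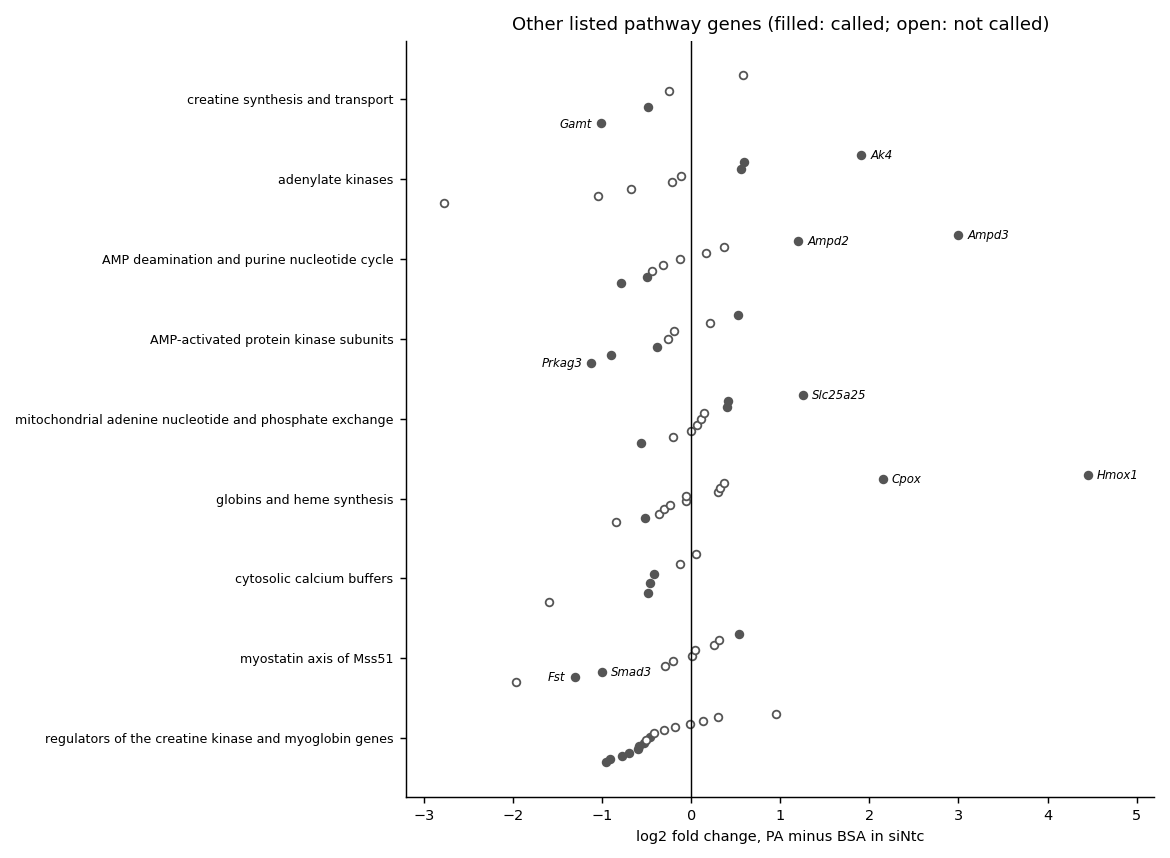
Log2 fold change of PA against BSA in siNtc (horizontal axis) of the tested genes in each of 9 pathway lists without the members; each point is a gene, filled where called and open where not. Hmox1 at 4.45, Ampd3 at 3.00 and Cpox at 2.15 lie farthest to the right, and Fst, Prkag3 and Gamt are at -1.31, -1.12 and -1.01.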

How the data were processed

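RNA of C2C12 myotubes was measured in 18 libraries, 3 in each of 6 groups taken with their replicate numbers from the sample labels. The authors deposited counts of read pairs per gene, without normalization, which per the file headers were made with featureCounts 2.0.0, the Ensembl 105 annotation on GRCm39, strand setting 2, only primary alignments, and mapping quality of at least 3. According to the methods, reads were trimmed and aligned with STAR, and duplicates were marked. The counting command in the header sets no option to leave duplicates out. A second deposited table holds log2 values made from the same counts and was not used. Columns of samples outside the series numbered 0. Column 6 of the count table is the exonic length.

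All genes that reached 10 counts in total were fitted with edgeR 4.0.16 in R 4.3.3, with TMM normalization and 1 coefficient per group over all 18 libraries, and tested by quasi-likelihood with Benjamini-Hochberg adjustment. A gene was called at an FDR under 0.05 with a fold change above 1.3. The SE of a log2 fold change is its size divided by the square root of its F statistic. CPM scale counts by the TMM-adjusted library size, and CPM per kb divide them by the exonic length. The tests were checked on simulated counts. Precision follows the count of a gene and was lowest for Ckmt2. Promoters and symbols came from GENCODE M39.

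The members, lists, motifs and alternatives were chosen with earlier results of these data known. The text names all members, up to 4 called genes per list and comparison by adjusted p, Mapk6, Mapkapk5, and the 3 genes nearest to a member whose group means span at least 1 on the log2 scale. Some genes that this rule names are not reported here. Alternatives were DESeq2 1.42.0, its size factors, filterByExpr, no filter, the replicate number as a block, only the compared groups, FDR alone and leaving out each library. Python 3.11.15 with pandas 2.3.3 and matplotlib 3.10.9 did the rest.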

Additional observations from a re-analysis of the deposited data

Results flagged for a closer look

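The response of Mss51 to PA differed between siMk5 and siNtc by an interaction of 0.65 on the log2 scale (SE 0.14, adjusted p = 0.0368 by edgeR). In siNtc Mss51 went from 24 ± 1.57 CPM in BSA to 13.2 ± 0.359 in PA (SD, n = 3), and in siMk5 from 14.6 ± 3.03 to 12.7 ± 0.344. The interaction contains the difference in BSA with which Mss51 was chosen, so it is no independent evidence. Over the 12 fits that each left out 1 library it ran from 0.53 to 0.83, with adjusted p from 0.00193 to 0.151, and it passed the test in 3 of them. With the 18S share as a covariate it was 0.69 (adjusted p = 0.226), and in the fit blocked on replicate number 0.66 (adjusted p = 0.0244).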

How the results depend on the processing

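No alternative reversed a called member. Of the log2 fold changes of single members, 680 kept their side of the threshold when a library was left out, 17 lost a call and 5 gained one. Under the other alternatives 681 kept it, 2 lost a call and 6 gained one. In siErk3 against siNtc in BSA, where 0 members were called, 1 was called without a filter on low counts and 1 with only the compared groups (Ampd1 in both), and 1 by FDR alone (Mb). In siErk3 against siMk5, 0 became 1 in BSA without a filter and with only the compared groups (Pvalb), and 1 became 2 in PA by FDR alone (Ckb and Pvalb). FDR alone also gave 7 members for PA in siNtc against 5, 5 for PA in siErk3 against 3, 4 for PA in siMk5 against 2, and 2 for the interaction of siMk5 with PA against 1. For that interaction filterByExpr and the 18S covariate, added after the data were seen, each gave 0. Leaving out 1 library gave 0 to 1 members there (0 in 9 of 12 fits), 0 to 1 in siErk3 against siNtc in PA (0 without siNtc PA library 1, siNtc PA library 2 or siErk3 PA library 2), 1 to 2 in siMk5 against siNtc in BSA (1 without siMk5 BSA library 3), 0 to 2 in siErk3 against siMk5 in BSA (2 without siErk3 BSA library 2 and 1 without siMk5 BSA library 1), 3 to 5 for PA in siNtc (3 without siNtc BSA library 3), and 3 to 4 for PA in siErk3 (4 without siErk3 BSA library 2, with Ckm, or siErk3 PA library 1, with Ampd1). The 18S covariate also gave 4 there, with Ckm. The causes were not tested, beyond fewer libraries or genes entering a fit.

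The labels do not state whether the replicate numbers pair the libraries. The criterion for pairing was a correlation over 0.1 in all 3 same-numbered pairs of a comparison. None met it (deviations from group means over 9332 genes, from -0.665 to 0.579), so the main fit used no pairing. All 3 correlations were above 0 in siMk5 against siNtc in BSA (mean 0.173) and in siErk3 against siMk5 in PA (mean 0.367). Missing this cut-off cannot show that the libraries are unpaired. With the replicate block 1 member was called between siErk3 and siMk5 in BSA (Mss51, log2 fold change 0.38, adjusted p = 0.0392) in place of 0, and the block changed no other call of a member. Depth limits Ckmt1 and Ckmt2 most, and next Ampd1 and Pvalb.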
